A study of Mus musculus with 10 samples.

Results

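Voltage-gated potassium channels are described here through 7 genes, namely Kcna1, Kcna2, Kcnab2, Kcnc1, Kcnc2, Kcnd2 and Kcnq3. They were chosen by gene symbol, with earlier results of these data known. All 7 were found among the 55471 Ensembl gene identifiers of the deposited table and among the 17101 genes with enough counts to test. The data are RNA-seq of the brain of 10 Swiss Webster pups, wild type per the labels, all with a hypoxic-ischemic injury, of which 5 received allopregnanolone and 5 no treatment. Allopregnanolone is a progesterone metabolite that enhances GABA-A receptor currents, and hypoxia-ischemia deprives the brain of oxygen and blood flow. The series' design text gives neonatal day 5, without saying whether injury or collection fell on it. The labels give 1 library for each pup and no uninjured brain, dose or litter. Treated libraries are numbered 6 to 10 and untreated libraries 1 to 5, after the pups.

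Potassium channels that open with depolarisation end the action potential and set how soon the next one can follow. Kcna1 and Kcna2 encode pore-forming (alpha) subunits of the Shaker family, which in mature axons sit under the myelin beside the node of Ranvier and at axon terminals, and Kcnab2 encodes a cytoplasmic beta subunit that binds them. Kcnc1 and Kcnc2 encode subunits of the Shaw family, whose fast closing lets fast-spiking interneurons and brainstem neurons fire at high rates. Kcnd2 encodes a Shal subunit that carries the transient A-type current of dendrites, and Kcnq3 a subunit of the M-current, which dampens repetitive firing and which muscarinic receptors shut off. Many channels of this kind become more abundant in the rodent brain during postnatal weeks, as neurons gain fast action potentials.

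A potassium channel is recognised by the stretch of its gene that encodes the selectivity filter, the part of the pore that passes potassium and not sodium. The coding strand of that stretch is shown for the members that rose with treatment and whose filter codons lie in 1 exon. Relatives resemble each other there, and reads from long identical runs could be counted for the wrong gene. Capitals mark the filter's 6 codons, 18 bases, with 21 bases on each side (GENCODE M21 transcripts, GRCm38, plus strand). The Kcna2 stretch lies in exon 3 of 3 at chr3:107105203-107105262, that of Kcnc1 in exon 2 of 4 at chr7:46427952-46428011 and that of Kcnc2 in exon 3 of 5 at chr10:112456208-112456267.
Kcna2: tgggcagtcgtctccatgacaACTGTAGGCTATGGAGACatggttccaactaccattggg
Kcnc1: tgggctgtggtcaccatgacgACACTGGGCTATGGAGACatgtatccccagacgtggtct
Kcnc2: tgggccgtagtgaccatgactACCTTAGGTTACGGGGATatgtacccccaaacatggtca
The relatives Kcnc1 and Kcnc2 are identical at 45 of these 60 bases (75%) and Kcna2 and Kcnc1 at 40 (66.7%). Of the 18 filter bases alone, Kcnc1 and Kcnc2 share 11 and Kcna2 and Kcnc1 share 15, so none of these stretches is near-identical. Over whole transcripts, the longest run of identical bases was 20 between Kcna1 and Kcna2, 29 between Kcnc1 and Kcnc2 and 47 between Kcna2 and Kcnc1. In the deposited table the estimated counts of 6 members were whole in all 10 libraries, and Kcnc1 had a fraction in 1 library. Exons of Kcnab2 share 125 bases (2.24% of their length) with the transcript Gm16334 on the same strand, and those of the other 6 members overlap no annotated exon of another gene.

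Kcnab2, Kcnc1, Kcna2 and Kcnc2 were higher in treated brains, by 1.48-fold, 1.34-fold, 1.33-fold and 1.23-fold. None of the 7 was lower past the threshold, and Kcna1, Kcnd2 and Kcnq3 did not pass. The count of 4 higher members of 7 stands beside 6.61% of the 17101 genes tested that were higher, 4.65% that were lower and 11.3% that passed in either direction, at an adjusted p under 0.05 in edgeR's quasi-likelihood test (Benjamini-Hochberg over all genes tested). The median log2 fold change, treated minus untreated, was 0.30 over the members and 0.00 to 2 decimals over all genes tested. Because the members were chosen with earlier results known, neither comparison is a test of them as a set. Levels below are CPM, a gene's counts relative to the library's total in units of 1e+06, scaled between libraries by TMM, and spreads are the SD over a group's 5 libraries. In RNA of whole tissue, more cells of a type and more RNA per cell cannot be told apart.

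**Figure D1:**
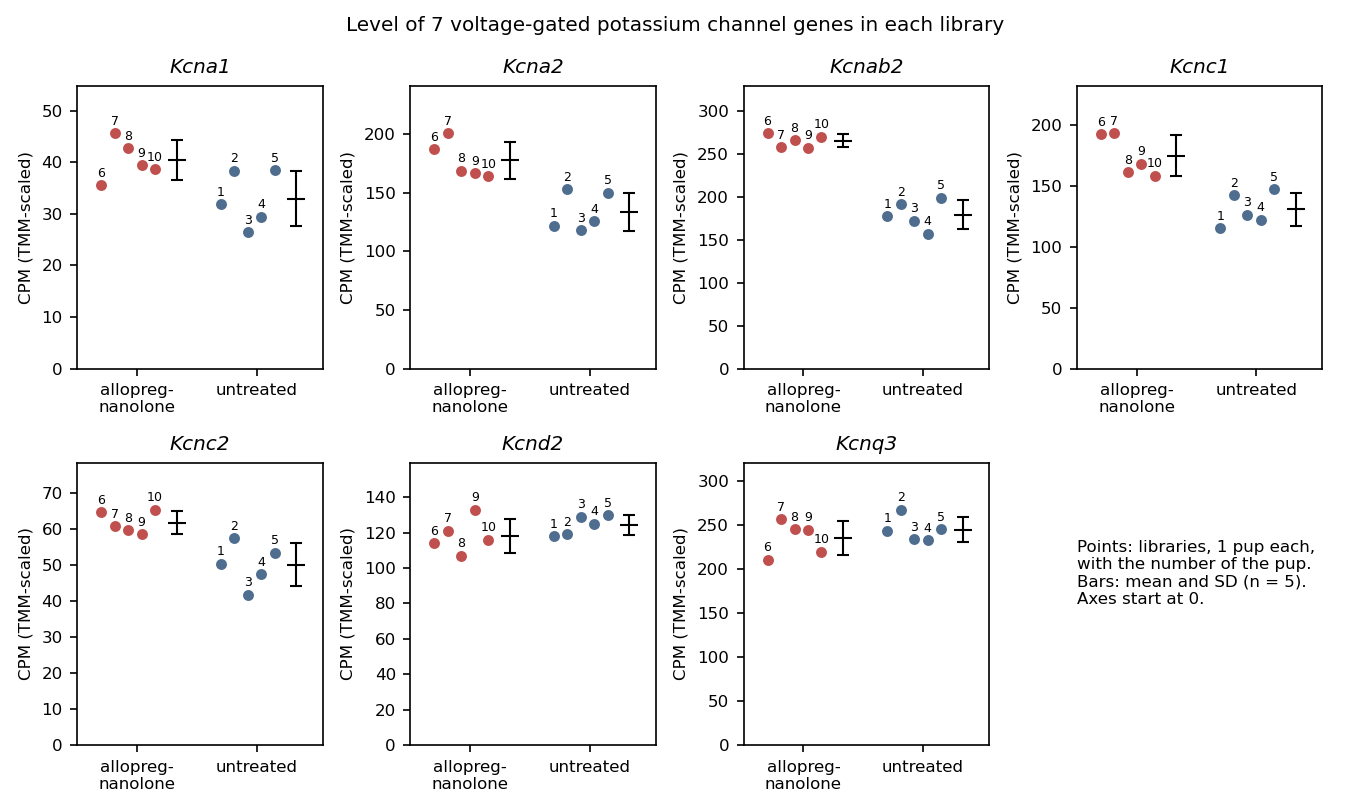
Level of each of the 7 genes in CPM (vertical axes, starting at 0) in the 5 allopregnanolone libraries (red, left) and the 5 untreated libraries (blue, right) of each panel, numbered by pup, with the mean and SD beside the points. Kcnab2 lay between 257 and 274 CPM in treated libraries, above all untreated libraries, whereas Kcnd2 and Kcnq3 overlapped between the groups.

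Kcnab2 had the smallest p of the 7. This beta subunit gene (ENSMUSG00000028931, chromosome 4, 152390742 to 152477871) stood at 274, 258, 266, 257 and 270 CPM in treated libraries 6 to 10, against 177, 191, 172, 157 and 199 CPM in untreated libraries 1 to 5. The groups did not overlap, and the spread was 2.76% of the mean in treated and 9.14% in untreated libraries. Its mean was 265 ± 7.31 CPM with treatment and 179 ± 16.4 CPM without (SD, n = 5 each), a log2 fold change of 0.57 (SE 0.06, adjusted p = 0.000224, edgeR), with the lowest of the 5 treated values above the highest untreated value. Its relatives differed among themselves: Kcnab3, another beta subunit, was 1.43-fold higher (32.6 ± 4.35 CPM with treatment and 22.8 ± 3.45 CPM without, SD, n = 5 each, adjusted p = 0.00989, edgeR), and Kcnab1 had a log2 fold change of -0.06 (SE 0.10, adjusted p = 0.732, edgeR). Per base of exon, Kcnab2 made up 72.2 ± 2.58% of the 3 beta subunit genes in treated and 67.9 ± 2.27% in untreated libraries (SD, n = 5 each). These shares overlapped, treated library 7 at 68.1% lying below the untreated maximum of 70.1%.

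Of the Shaker members Kcna1 and Kcna2, whose products bind that of Kcnab2, Kcna2 passed the threshold and Kcna1 did not. Kcna2 (ENSMUSG00000040724, chromosome 3, 107101146 to 107115005) was at 187, 201, 169, 167 and 164 CPM in treated libraries 6 to 10 and at 122, 153, 118, 126 and 150 CPM in untreated libraries 1 to 5. Every treated value exceeded every untreated value, treated libraries 6 and 7 were the highest, and untreated libraries 2 and 5 came closest to the treated range. The means were 177 ± 15.9 CPM with treatment and 134 ± 16.5 CPM without (SD, n = 5 each), with a log2 fold change of 0.41 (SE 0.08, adjusted p = 0.00851, edgeR). Kcna1 (ENSMUSG00000047976, chromosome 6, 126640397 to 126646384) was at 35.6, 45.7, 42.8, 39.5 and 38.7 CPM in treated and at 31.9, 38.4, 26.5, 29.5 and 38.5 CPM in untreated libraries. Treated library 6 was below untreated libraries 2 and 5, so the groups overlapped. The log2 fold change of Kcna1 was 0.29 (SE 0.10, 95% interval 0.07 to 0.51, adjusted p = 0.0796, edgeR), and it passed in DESeq2 (adjusted p = 0.0477) and in edgeR without untreated library 2 (adjusted p = 0.0476) or untreated library 5 (adjusted p = 0.0357). Within a library, which removes the scaling between libraries, Kcna2 was 63.8 ± 2.43% of the pair per base of exon in treated and 62.0 ± 1.52% in untreated libraries (SD, n = 5 each), with overlapping ranges. Kcna6, a further Shaker gene of neurons, had a log2 fold change of -0.02 (SE 0.08, adjusted p = 0.924, edgeR), while 39.6% of its exon length lies opposite the antisense gene Gm26673.

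Both Shaw members rose. Kcnc1 (ENSMUSG00000058975, chromosome 7, 46396497 to 46438704) was at 192, 193, 161, 168 and 158 CPM in treated libraries 6 to 10, against 115, 142, 126, 122 and 147 CPM in untreated libraries 1 to 5. As for Kcna2, treated libraries 6 and 7 were the highest and no value of one group fell within the other. Its mean was 174 ± 17.1 CPM in treated brains and 131 ± 13.8 CPM in untreated brains (SD, n = 5 each), with a log2 fold change of 0.42 (SE 0.08, adjusted p = 0.00678, edgeR). Kcnc2 (ENSMUSG00000035681, chromosome 10, 112271121 to 112467024) was at 64.8, 60.8, 59.8, 58.6 and 65.5 CPM in treated and at 50.5, 57.5, 41.8, 47.6 and 53.5 CPM in untreated libraries. These groups were separated by a narrow margin, between 58.6 CPM in treated library 9 and 57.5 CPM in untreated library 2. Kcnc2 had means of 61.9 ± 3.09 CPM with treatment and 50.2 ± 5.94 CPM without (SD, n = 5 each) and a log2 fold change of 0.30 (SE 0.07, adjusted p = 0.0211, edgeR), and it missed the threshold without untreated library 4 (adjusted p = 0.0571).

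Kcnc4, a further Shaw gene, had a log2 fold change of 0.31 (SE 0.10, adjusted p = 0.0632, edgeR).

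**Figure D2:**
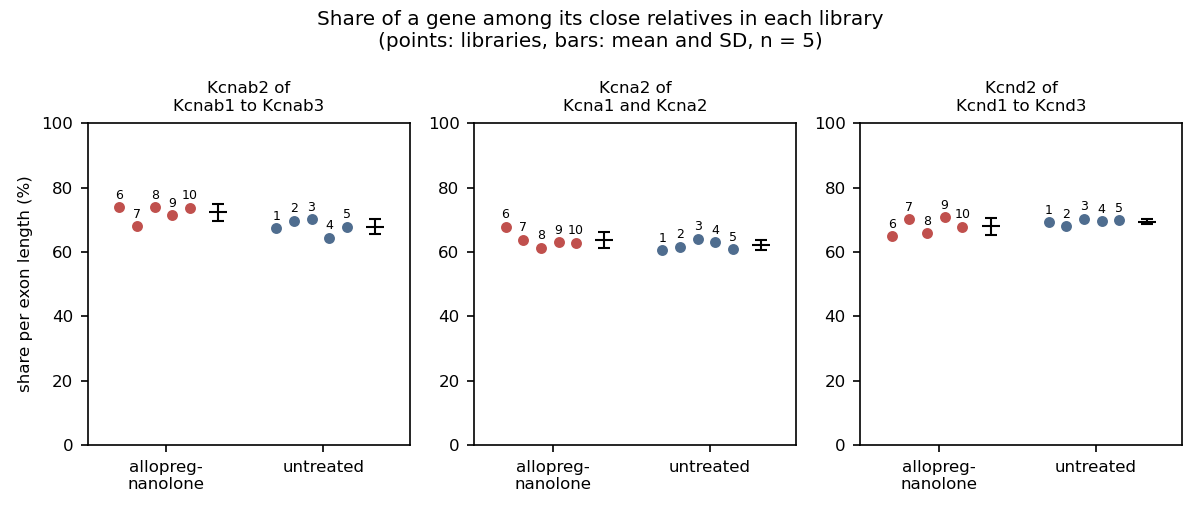
Share of each gene among its close relatives (vertical axis, percent, from CPM per base of exon) in the 5 allopregnanolone libraries (red, left) and 5 untreated libraries (blue, right), with the mean and SD. In each of the 3 panels the ranges of the groups overlap, as for Kcnab2 at 68.1 to 74.0% in treated and 64.4 to 70.1% in untreated libraries.

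Kcnd2 and Kcnq3 showed no detectable difference at this depth. Kcnd2, the A-type gene (ENSMUSG00000060882, chromosome 6, 21215503 to 21729805), was at 114, 121, 107, 133 and 116 CPM in treated libraries 6 to 10 and at 118, 119, 129, 125 and 130 CPM in untreated libraries 1 to 5. Treated library 9 was the highest of all 10 and treated library 8 the lowest. The log2 fold change was -0.08 (SE 0.06, 95% interval -0.20 to 0.05, adjusted p = 0.429, edgeR), so a rise of more than 1.03-fold and a fall below 0.869 of the untreated level lie outside the interval. Kcnq3, the M-current gene (ENSMUSG00000056258, chromosome 15, 65986387 to 66286642), was at 211, 257, 246, 245 and 220 CPM in treated and at 244, 268, 234, 233 and 246 CPM in untreated libraries. Treated values of Kcnq3 lay inside and below the untreated range. Its log2 fold change was -0.06 (SE 0.06, 95% interval -0.19 to 0.08, adjusted p = 0.615, edgeR). For their relatives the log2 fold changes were 0.08 (SE 0.06) for Kcnd3 and -0.07 (SE 0.09) for Kcnq5, neither past the threshold. Kcnd2 was 67.9 ± 2.58% of Kcnd1, Kcnd2 and Kcnd3 per base of exon in treated and 69.4 ± 0.871% in untreated libraries (SD, n = 5 each), with overlapping ranges.

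Levels can be compared between genes only per length of exon. On the scale of CPM per kilobase of annotated exon, Kcnab2 was highest in treated brains at 47.5 ± 1.31, followed by Kcnd2 at 22.9 ± 1.88, Kcnc1 at 18.4 ± 1.81, Kcnq3 at 16.0 ± 1.32, Kcna2 at 14.9 ± 1.34, Kcnc2 at 8.67 ± 0.433 and Kcna1 at 8.46 ± 0.816 (SD, n = 5 each). In untreated brains Kcnab2 was at 32.1 ± 2.93, Kcnd2 at 24.2 ± 1.02, Kcnq3 at 16.7 ± 0.967, Kcnc1 at 13.8 ± 1.46, Kcna2 at 11.2 ± 1.39, Kcnc2 at 7.03 ± 0.833 and Kcna1 at 6.90 ± 1.12 (SD, n = 5 each). Kcnc1 thus stood above Kcnq3 in the treated and below it in the untreated order. Neighbours whose library ranges overlapped in treated brains were Kcnc1 with Kcnq3, Kcnq3 with Kcna2, and Kcnc2 with Kcna1. In untreated brains they were Kcnc1 with Kcna2 and Kcnc2 with Kcna1. The annotated exons include untranslated ends that may not be used in full in the neonatal brain, so this order depends on the annotation.

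The rest of the family mostly did not pass. Of 34 other alpha subunit genes 31 were tested, of which 3 rose, 3 fell and 25 did not pass, with a median log2 fold change of 0.06. For this count and those of the lists below, the shares over all genes tested are 6.61% higher and 4.65% lower. Kcng4, which rose, was at 8.62 ± 3.05 CPM with treatment and 3.93 ± 1.23 CPM without (SD, n = 5 each). Kcng4 encodes a modifier subunit that forms channels only together with subunits of another family, and its 2.19-fold difference (adjusted p = 0.0131, edgeR) was the largest rise among the genes tested in the family. Its groups overlapped, with treated library 8 at 5.07 CPM and untreated library 5 at 5.34 CPM. With the mean of a midbrain marker list as a covariate its log2 fold change was 0.48 (adjusted p = 0.406, edgeR), against 1.13 without. Among the genes that fell were 2 more modifier subunits, Kcng1 at 57.4 ± 3.98 CPM with treatment and 74.9 ± 5.76 CPM without (SD, n = 5 each, adjusted p = 0.00283, edgeR) and Kcng3 at 0.526 ± 0.208 CPM with treatment and 1.13 ± 0.207 CPM without (SD, n = 5 each, adjusted p = 0.0346, edgeR), the last resting on 5 to 35 counts per library. Kcna4, a Shaker subunit with A-type current, was at 16.2 ± 1.36 CPM with treatment and 19.7 ± 1.25 CPM without (SD, n = 5 each, adjusted p = 0.0297, edgeR). Kcna4 missed the threshold without untreated library 3 or 4 or treated library 6, 9 or 10, and Kcng3 without untreated library 2, 3 or 4 or treated library 7, 8 or 10. Kcng3 also missed it without a count filter (adjusted p = 0.0573, edgeR) and was not tested with a minimum of 100 counts.

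Of 15 symbols listed for other auxiliary subunits 14 were found in the deposited table and 12 were tested. Among those tested 2 rose and none fell, with a median log2 fold change of 0.08. Besides Kcnab3, Amigo1, a membrane protein that accompanies delayed rectifier channels, rose to 69.4 ± 1.84 CPM treated, against 59.3 ± 1.99 CPM without (SD, n = 5 each, adjusted p = 0.00683, edgeR), without overlap between the groups. Over all genes tested, the treated libraries all lay above the untreated ones for 5.44% of genes and all below them for 4.20%, so the groups were separate in either direction for 9.64%. This separation held upward for 4 of the 7 members, Kcnab2, Kcnc1, Kcna2 and Kcnc2.

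**Figure D3:**
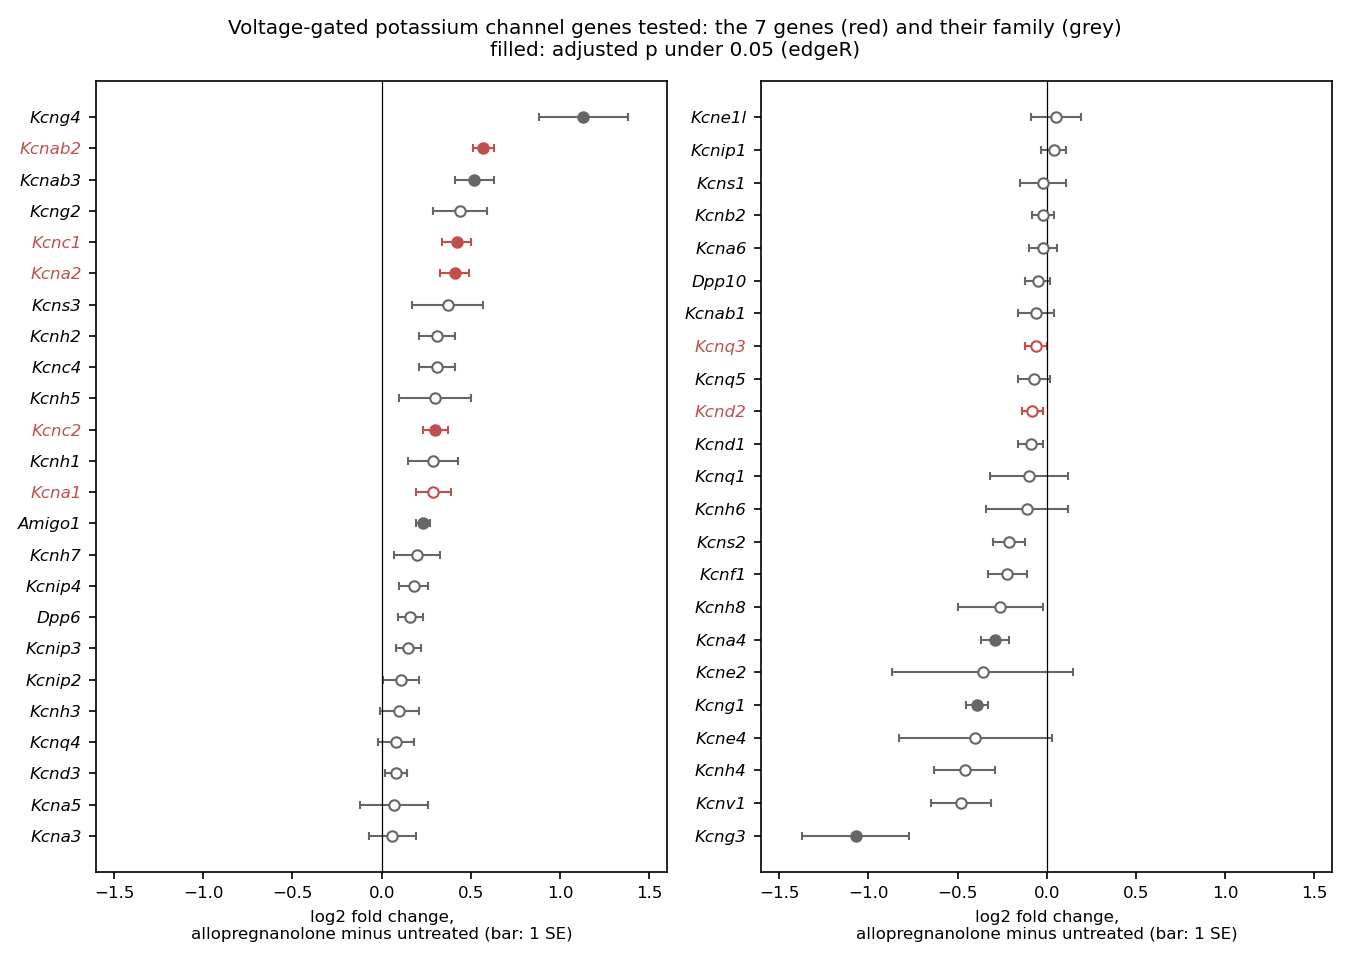
Log2 fold change, allopregnanolone minus untreated (horizontal axis, bars 1 SE), of 47 voltage-gated potassium channel genes tested, in order of fold change from the top left to the bottom right, with the 7 genes in red and the rest of the family in grey. Filled points passed an adjusted p of 0.05, and Kcng4 at 1.13 and Kcng3 at -1.07 mark the ends.

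Proteins that hold these channels along the axon were compared in a list of 20 genes, all tested, of which 3 rose, 1 fell and 16 did not pass (median log2 fold change 0.06). Cntnap2 and Cntn2, the adhesion pair that gathers Shaker channels beside the node, had log2 fold changes of -0.08 (SE 0.05) and 0.06 (SE 0.06), neither past the threshold. The genes that rose were Lgi3, a secreted partner of axonal receptors (129 ± 11.4 CPM with treatment and 77.0 ± 15.1 CPM without, adjusted p = 0.00180), Cntnap1, of the paranodal junction (333 ± 50.1 CPM with treatment and 223 ± 41.9 CPM without, adjusted p = 0.0108), and Nfasc (645 ± 60.8 CPM with treatment and 447 ± 63.0 CPM without, adjusted p = 0.00441; SD, n = 5 each, edgeR). Nfasc has forms in neurons and in oligodendrocytes, which these counts do not separate. Cntn1, the paranodal partner of Cntnap1, fell to 407 ± 15.9 CPM in treated brains, against 467 ± 14.6 CPM in untreated brains (SD, n = 5 each, adjusted p = 0.0160, edgeR).

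Potassium channels of other classes gave 4 higher and 1 lower gene of 26 tested, and a median log2 fold change of 0.02. Kcnn2, a calcium-activated channel, rose 1.30-fold, Kcnj10, the inward rectifier of astrocytes and oligodendrocytes, 1.36-fold, Kcnj11, of ATP-sensitive channels, 1.35-fold and Kcnk1, a background channel, 1.28-fold. Kcnk10, another background channel, was 1.51-fold lower (12.9 ± 1.91 CPM with treatment and 19.5 ± 2.41 CPM without, SD, n = 5 each, adjusted p = 0.00677, edgeR).

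Across the 10 libraries Kcna2 and Kcnc1 had nearly the same profile. After each gene was centred on its own mean of log2(CPM + 1), their root mean square difference was 0.060, the smallest of the 21 pairs of members, and Kcnc1 was the second closest of 13480 protein-coding genes to Kcna2. For comparison the median distance of those genes from Kcna2 was 0.283, and Kcnab2 and Kcnd2, at 0.349, were the pair of members farthest apart. The genes nearest to Kcna2 were Nat8l (0.039), the enzyme that makes N-acetylaspartate in neurons, Kcnc1 and Sncb (0.062), beta-synuclein of presynaptic terminals. Nearest to Kcnc1 were Pcsk1n (0.043), Cntfr (0.050) and Nat8l (0.056). For Kcna1 they were Pld3 (0.069), Cx3cl1 (0.075) and Cyp46a1 (0.081), the neuronal enzyme that hydroxylates cholesterol, and for Kcnc2 Got1 (0.063), Pgam1 (0.064) and Tom1 (0.064). Those of Kcnab2 were Paqr8 (0.058), Ndrg2 (0.066) and Fgfr3 (0.073), the last of which astrocytes express. Kcnd2 was nearest to Mapkbp1 (0.044), Pes1 (0.048) and Fam172a (0.050), and Kcnq3 to Tmem65 (0.038), Akap6 (0.042) and Usp31 (0.043). These likenesses include the difference between the groups and describe 10 libraries only.

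The promoters of Kcna2 and Kcnc1 are printed because the levels of these genes ran together across libraries, with that of Kcnd2, which did not, beside them. Sequences are from RefSeq (GRCm38.p6), 250 bases before to 50 after the annotated start, and 5 of the 7 members had one (not Kcna1 and Kcnq3). Capitals mark GC boxes, GGGCGG on either strand. The Kcna2 window is chr3:107101317-107101616, that of Kcnc1 chr7:46396218-46396517 and that of Kcnd2 chr6:21215096-21215395, all on the plus strand.
Kcna2: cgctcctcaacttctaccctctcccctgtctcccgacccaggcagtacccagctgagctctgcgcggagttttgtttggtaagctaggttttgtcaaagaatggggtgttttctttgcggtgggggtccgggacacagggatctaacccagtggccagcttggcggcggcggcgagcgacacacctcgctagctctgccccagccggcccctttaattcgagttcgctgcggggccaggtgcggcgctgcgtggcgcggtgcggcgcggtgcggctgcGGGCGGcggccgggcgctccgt
Kcnc1: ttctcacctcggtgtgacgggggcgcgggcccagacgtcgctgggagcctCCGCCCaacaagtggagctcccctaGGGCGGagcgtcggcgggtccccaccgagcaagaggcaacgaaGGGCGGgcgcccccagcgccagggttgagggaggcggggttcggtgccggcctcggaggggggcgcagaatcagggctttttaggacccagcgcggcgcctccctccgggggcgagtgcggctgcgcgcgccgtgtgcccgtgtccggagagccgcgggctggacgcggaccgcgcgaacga
Kcnd2: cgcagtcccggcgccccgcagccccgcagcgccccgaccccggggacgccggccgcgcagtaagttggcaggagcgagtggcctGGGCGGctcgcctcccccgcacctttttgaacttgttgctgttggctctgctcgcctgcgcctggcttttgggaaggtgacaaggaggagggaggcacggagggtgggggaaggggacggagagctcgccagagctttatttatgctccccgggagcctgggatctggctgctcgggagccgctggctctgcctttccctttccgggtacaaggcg
All 3 are rich in G and C, at 66.7%, 74.7% and 68.7%, against a median of 52.7% over 32851 mouse promoters of the same length. The annotated starts of Kcnab2 and Kcnc2, not printed, ranged from 52.7% to 62.7%. Kcnc1 holds 3 GC boxes and Kcna2 and Kcnd2 hold 1 each, a motif found in 35.7% of all promoters. None of the 3 holds TATAAA, TGACGTCA or CACGTG, which 13.6%, 1.79% and 7.15% of all promoters hold. The same motif thus occurs in genes that rose and in one that did not pass, and a match describes letters, not a bound factor.

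Other cell and region markers differed between the groups as well. Of 18 myelin genes 17 rose, and their summed level was 6470 to 8754 CPM in treated and 2233 to 4256 CPM in untreated libraries. Of 16 midbrain genes tested (18 listed) 11 rose, with sums of 175, 128, 32.1, 92.9 and 33.8 CPM in treated libraries 6 to 10 and 21.0 to 43.6 CPM in untreated libraries. Treated libraries 6 and 7, which had the highest Kcnc1 and Kcna2, had the highest midbrain sums. Treated libraries 8 and 10, with midbrain sums inside the untreated range, had 161 and 158 CPM of Kcnc1, above the untreated maximum of 147 CPM. General neuron genes, 4 higher and 3 lower of 16, summed to 13092 to 14513 CPM in treated and 12082 to 13792 CPM in untreated libraries, and immature neuron genes, 6 lower of 14, to 756 to 867 CPM in treated and 947 to 1067 CPM in untreated libraries. No gene of these 4 lists was at 0 counts in all libraries.

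Fast-spiking interneurons are the best known site of Kcnc1 and Kcnc2. The list for them, which also holds general interneuron genes, gave 3 higher and none lower of 12. Of its 12 log2 fold changes 7 were above 0, with a median of 0.11. Pvalb, the calcium buffer of fast-spiking cells, was at 19.5 ± 3.82 CPM with treatment and 8.27 ± 2.43 CPM without (SD, n = 5 each, adjusted p = 0.00272, edgeR). Syt2, a calcium sensor of their terminals and of brainstem synapses, was at 63.2 ± 20.5 CPM with treatment and 34.4 ± 7.27 CPM without (SD, n = 5 each, adjusted p = 0.0154, edgeR). With the midbrain list as a covariate neither passed. The log2 fold changes were then 0.94 for Pvalb (adjusted p = 0.0952, edgeR) and 0.21 for Syt2 (adjusted p = 0.563, edgeR), against 1.24 and 0.88 without a covariate. The general interneuron gene Gad1 rose less, with a log2 fold change of 0.20 (adjusted p = 0.0411, edgeR), and 9 genes did not pass. The list summed to 1194 to 1329 CPM in treated and 1012 to 1242 CPM in untreated libraries, with no gene at 0 in all libraries. Cortical and striatal genes, 3 lower and none higher of 13, summed to 856 to 1471 CPM in treated and 1322 to 1673 CPM in untreated libraries, lowest in treated library 6. Astrocyte genes, 7 higher and none lower of 13, summed to 4098 to 4532 CPM in treated and 3311 to 3993 CPM in untreated libraries. Endothelial genes, 4 higher and none lower of 10, summed to 256 to 286 CPM in treated and 218 to 243 CPM in untreated libraries, without overlap. Microglial genes, 1 higher and 2 lower of 14, summed to 334 to 356 CPM in treated and 321 to 457 CPM in untreated libraries. Of the thalamic list 1 gene of 7 rose, of the red blood cell list 1 of 6 and of the choroid plexus list 0 of 6, and none fell. Of 14 hindbrain and brainstem genes 11 averaged below 1 CPM, among them Hoxb3, and 3 could be tested. In contrast, cerebellar genes, 9 tested of 12 and none past the threshold, summed to 537 to 704 CPM in treated and 589 to 734 CPM in untreated libraries. Most markers of the brainstem list thus averaged below 1 CPM in libraries labelled as whole brain, as did 3 of the 12 cerebellar genes. Which regions the tissue held was not tested. Fits with the mean of the myelin, midbrain or neuron list as a covariate are given below. No such fit was run for the other lists, and the cause of the channel differences was not tested.

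**Figure D4:**
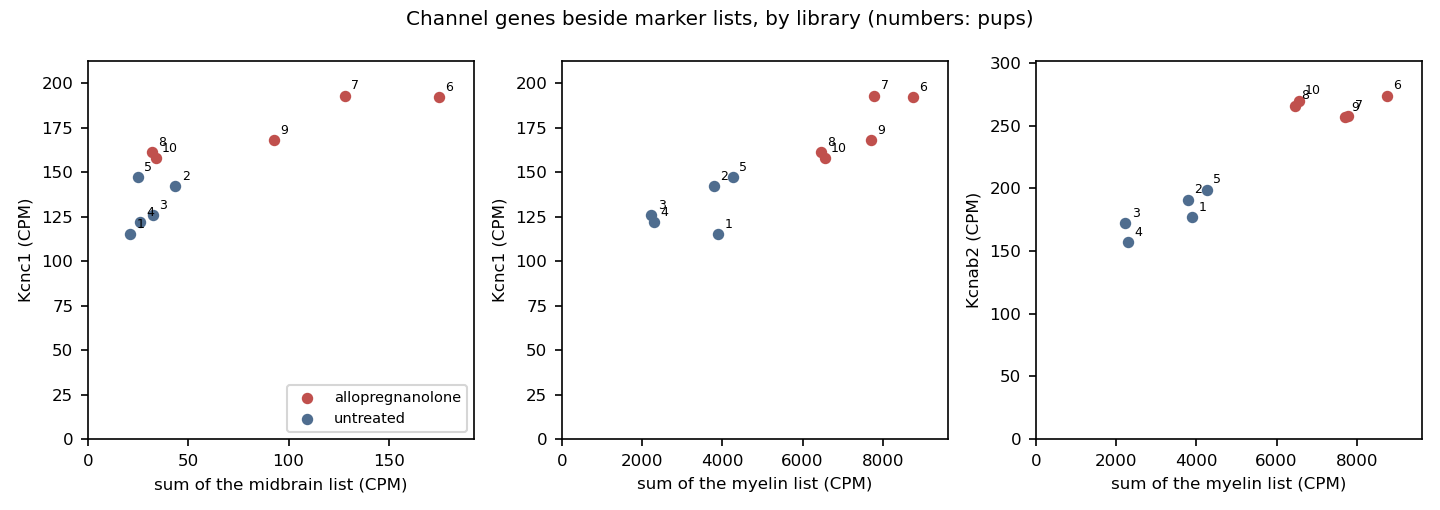
Kcnc1 against the midbrain list, Kcnc1 against the myelin list and Kcnab2 against the myelin list (channel genes on vertical axes, list sums on horizontal axes, all in CPM from 0) in each allopregnanolone (red) and untreated (blue) library, numbered by pup. Treated libraries 6 and 7 had the highest sums of both lists and the highest Kcnc1. Treated libraries 8 and 10 had midbrain sums of 32.1 and 33.8 CPM, within the untreated range, and Kcnc1 above all untreated libraries.

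With the mean level of a marker list as a covariate, fewer members passed in edgeR. Kcnab2 alone passed beside the midbrain list (log2 fold change 0.54, adjusted p = 0.00754) and beside the neuron list (0.47, adjusted p = 0.00431), where the log2 fold changes were 0.23 and 0.26 for Kcnc1, 0.26 and 0.22 for Kcna2, and 0.27 and 0.19 for Kcnc2. Beside the myelin list, which did not overlap between the groups, no gene of the whole table passed, and the log2 fold changes were 0.31 for Kcnab2, 0.12 for Kcnc1, 0.05 for Kcna2 and -0.03 for Kcnc2. The labels name untreated libraries 1 to 3 with another prefix than the other 7, and what the prefix stands for is not given. Without those 3 libraries, which leaves 2 untreated libraries, Kcnab2 alone passed (0.57, adjusted p = 0.0272), and the log2 fold changes were 0.37 for Kcnc1, 0.36 for Kcna2 and 0.29 for Kcnc2.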

How the data were processed

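Whole-brain RNA of 10 pups was profiled, 5 with allopregnanolone and 5 untreated. The kits, per the labels' protocols, were RNeasy Mini Plus for RNA and NEBNext Ultra II Directional for libraries, which keeps strand. Partek and mm10 are named in the submitters' processing notes, whereas aligner, counter, annotation and strand setting of the counting were not given in the sources used here.

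The gene table deposited by the authors holds estimated counts (expected counts): its name calls them normalized, but 86.8% to 87.6% of the values above 0 were whole in each library and totals ranged from 18656836 to 34270723. They were rounded and analysed as counts. Names and coordinates came from GENCODE M21 (GRCm38), which matched 55230 identifiers and not 241. Genes with 10 or more counts in at least 5 libraries were kept (17101). TMM scaling (factors 0.953 to 1.04) was applied and groups were compared with edgeR 4.0.16 in R 4.3.3 (quasi-likelihood, two-sided, adjusted p under 0.05, no covariate). Each standard error was obtained as |log2 fold change| over the root of the F statistic, and 95% intervals use the fit's degrees of freedom. Tested on simulated data of 17101 genes, it recovered 61% of changes of 1.5-fold and 86% of those of 2-fold, while 6.96% of calls fell on unchanged genes. The simulation changed fewer genes than passed in the data, and only by these sizes. Smaller differences, such as those of the members (1.48-fold at most), were not simulated.

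The members and gene lists were chosen with earlier results of these data known. Named genes are the members, the genes past the threshold in 4 lists of channel genes (up to 8 each), close relatives of the members, up to 2 genes per marker list, and the 3 genes most like each member. Some genes that this rule names are not reported here. Gad1, Cntnap2, Cntn2 and Hoxb3 were named after their values were seen. Alternatives were median-of-ratios, upper-quartile and library-total scaling, no count filter, a minimum of 100 counts, DESeq2 1.42.0, limma-trend (limma 3.58.1, prior count 1), thinning to 18656827 counts, each library left out, omission of the 3 libraries with another name prefix, and the myelin, midbrain or neuron list mean as covariate. Pups were treated as separate animals, and litters are not given. Plots used Python 3.11.15 and matplotlib 3.10.9.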

Additional observations from a re-analysis of the deposited data

Results flagged for a closer look

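Of 54 groups of 5 libraries checked for 27 genes, 1 held a library set apart from the other 4 of its group by a gap of more than 0.71 of the group's range, where chance gives about 1 in 20. Kcnq5, an M-current gene, was at 87.0 CPM in treated library 6, against 121 to 133 CPM in the other treated libraries. No group of the 7 members was set apart in this way.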

How the results depend on the processing

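Kcnab2, Kcnc1 and Kcna2 kept their direction and call under 3 other scalings, both count filters, DESeq2, limma-trend, thinning and every library left out. Kcnc2 did so except without untreated library 4. Scaling by library totals gave 783 higher and 1451 lower genes (1131 and 795 with TMM), and the median of all genes shifted by -0.06 on the log2 scale. Without the 3 libraries of another name prefix 105 genes passed in the whole table, 1 member and 0 other alpha subunit genes. The myelin covariate left 0 genes, 0 members and 0 other alpha subunit genes, the midbrain covariate 234, 1 and 1, and the neuron covariate 267, 1 and 1. Leaving out single libraries gave 1084 (without untreated library 4) to 2343 genes (without untreated library 5), with 1235 without untreated library 1 and 1116 without untreated library 3, against 1926, and 3 to 5 members and 3 to 8 other alpha subunit genes, the last being 3 without untreated library 4. Beside the myelin covariate the log2 fold change turned to -0.12 for Kcna1, -0.03 for Kcnc2, -0.07 for Kcng4, -0.15 for Kcnc4, -0.04 for Nfasc, -0.11 for Cntnap1 and -0.22 for Syt2. Beside the midbrain covariate it turned to -0.0037 for Kcnd3 and 0.08 for Kcnq5. Kcna6 turned to 0.04 without the 3 libraries and to 0.0023 to 0.04 without untreated library 2 or 5 or treated library 9 or 10, and Kcnq5 to 0.02 without treated library 6. The causes were not tested. The 7 members had 639 to 9201 counts in a library, and the share of counting error in the spread between pups was not tested. No paired analysis was possible because the labels give neither litters nor pairs of pups. Likeness between genes was computed under TMM scaling only.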
